A study of Rattus norvegicus with 9 samples.

Results

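The genes described here make and sense the vascular prostanoids prostacyclin and thromboxane: the cyclooxygenases Ptgs1 and Ptgs2, prostacyclin synthase Ptgis, thromboxane synthase Tbxas1, the prostacyclin receptor Ptgir, the thromboxane receptor Tbxa2r, the prostaglandin E receptor Ptger4 and the prostaglandin D receptor Ptgdr. They were taken by gene symbol, as the probes annotated to 1 of these symbols alone, and all 8 were found, on 9 of the 22575 features of the array. Ptgs2 had 2 probes and each other gene had 1. RNA of the thoracic aorta came from rats born to diabetic mothers (DMO) and from rats born to control mothers (CMO). Each two-colour array compared 1 DMO animal with 1 CMO animal, and the 9 arrays analysed held 5 such pairs. The pairs were DMO 193 with CMO 189, DMO 194 with CMO 190, DMO 197 with CMO 191, DMO 199 with CMO 192, and DMO 220 with CMO 216. They are called below by the number of the DMO animal. Pair 194 had a single array, with DMO on Cy3, and each of the other 4 pairs had an array in either dye orientation. Strain, sex, age at sampling, litter and the way the mothers became diabetic are not given in the labels, so the 5 pairs may hold littermates.

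Arachidonic acid freed from membranes is oxidised by the cyclooxygenases, and the product is passed to the synthases. Prostacyclin, made by endothelium and smooth muscle, acts on Ptgir, which raises cAMP through Gs, relaxes smooth muscle and restrains platelets. Thromboxane, made mainly by platelets and macrophages, acts on Tbxa2r, which signals through Gq and RhoA, contracts smooth muscle and activates platelets. The 2 products thus oppose each other in the wall of an artery.

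Values are deposited log ratios of the 2 channels. Their base is not stated and was taken as 2, so differences are given on that scale and not as folds. Neither the labels nor the files say whether a positive value stands for more RNA in DMO or in CMO, so signs are given as deposited, and no higher or lower level in DMO is read from them. The values of the DMO-Cy5 arrays were read as already turned to run the same way as the others. Under the opposite reading the sign of these 4 arrays is turned, and the mean of each member with them turned is given as well. Where the first reading holds, such a mean reflects what changes with the dye in the swapped pairs. Fos was at 1.34, 1.35, 1.14 and 2.12 on the Cy3 arrays of pairs 193, 197, 199 and 220. Its Cy5 values, in the same order, were 1.28, 1.11, 1.02 and 1.88. Ptgir, in contrast, had opposite signs on the 2 arrays of each swapped pair. Over all features the orientations correlated at r = 0.67 in pair 197 but at -0.18 in pair 199. Which reading is right was not tested. A ratio holds no level, so the presence of aortic cell types in the RNA could not be checked, nor could fewer cells of a type be told apart from less RNA per cell. The names of genes depend on how features were numbered, which the files do not state. With the numbering used, 30 pairs of probes of the same gene that varied most between arrays had a median r of 0.94 over the 9 arrays. Of these, 24 had an r over 0.8, and the lowest was -0.35. With the row number taken as the probe number, 19 such pairs had a median r of 0.24 and a lowest of -0.59, with 0 over 0.8. For Ptgir and the other members with a single probe no second probe bears on the name, and the 2 probes of Ptgs2 disagreed, as given below.

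The deposited values also varied with position on the slide. The median of the features around each feature, in a window of 15 by 15, was computed on every array as a local median. On the 2 arrays of a swapped pair these local medians correlated across features at r = -0.91, -0.16, -0.74 and -0.61 for pairs 193, 197, 199 and 220, so the pattern by position turned its sign with the dye orientation, though weakly in pair 197. The values themselves correlated at r = 0.15, 0.67, -0.18 and 0.072 in these pairs, and at 0.32, 0.71, -0.038 and 0.23 after the local median was subtracted. Features are not independent, and these correlations are descriptions. Local medians are set beside the members below because for some of them they were as large as the values.

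Across all features, limma called none at an adjusted p of 0.05 in the comparison of DMO with CMO (0 of 22575, or 0%). An unadjusted p under 0.05 was reached by 4.73% of features as deposited and by none of the 9 member probes. Of the 9 probes, 4 had positive and 5 negative means over the pairs, with a median of -0.094 against 0.0045 over all features. The 2 arrays of a swapped pair had opposite signs in 18 of 36 combinations of member probe and pair, or 50%, against 49.7% over all features. The members thus stood at the background share in that respect.

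**Figure D1:**
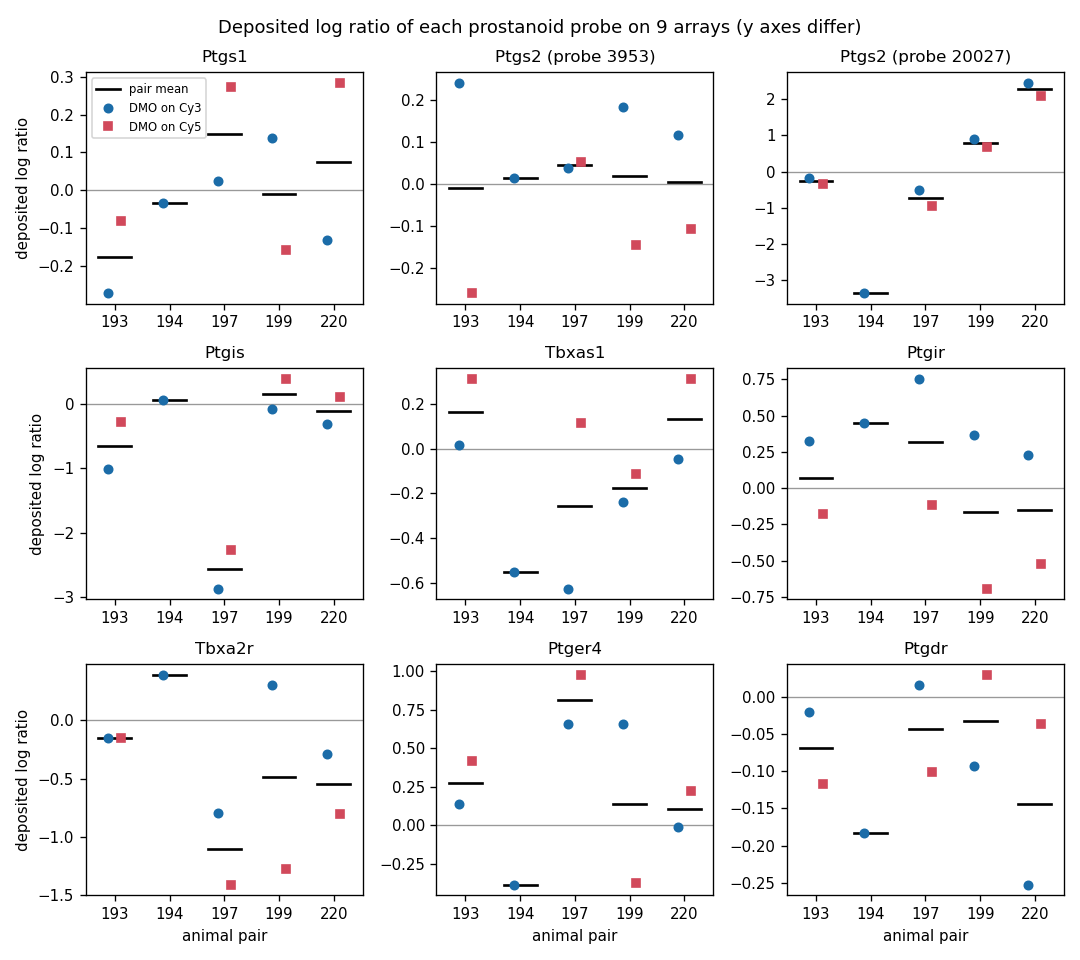
Deposited log ratio (vertical axis, log scale of unstated base) of the 9 member probes on each array, by animal pair (horizontal axis). Circles are arrays with DMO on Cy3, squares arrays with DMO on Cy5, and bars the pair mean. Both arrays of a pair lie close together for Ptgs2 probe 20027 and for Ptgis in pair 197, while for Ptgir every circle is above 0 and every square below.

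Ptgs2, the inducible cyclooxygenase, had the widest spread of pair means among the members on 1 of its probes and the narrowest on the other. On probe 20027 the arrays with DMO on Cy3 had log ratios of -0.19, -3.36, -0.51, 0.90 and 2.45 in pairs 193, 194, 197, 199 and 220. The DMO-Cy5 arrays had -0.33, -0.95, 0.68 and 2.09 in pairs 193, 197, 199 and 220. The 2 orientations had the same sign in 4 of 4 swapped pairs, so the large values recurred, but pairs 199 and 220 lay on the positive side and the other 3 on the negative side. The mean over pairs was -0.26 ± 2.08 (SD, n = 5), with a limma adjusted p of 0.981. Without pair 194 the mean was 0.52, and without pairs 197, 199 and 220 in turn it was -0.14, -0.52 and -0.89. With the Cy5 arrays turned it was -0.55 ± 1.57 (limma adjusted p = 0.586). Of the turned pair values 4 were positive, between 0.073 and 0.22, and pair 194, which has no Cy5 array to turn, stayed at -3.36. The pair means spanned over 5 units, which 0.0443% of all features did, a limit chosen after the values were seen. The local medians of this probe lay between -0.44 and 0.30, both in pair 199. On probe 3953 the Cy3 arrays had 0.24, 0.013, 0.036, 0.18 and 0.12 in pairs 193, 194, 197, 199 and 220. Its Cy5 arrays had -0.26, 0.052, -0.15 and -0.11 in pairs 193, 197, 199 and 220. The orientations had opposite signs in 3 of 4 swapped pairs, where the average lay closer to 0 than either array. Pair means lay between -0.010 and 0.044, and their mean was 0.014 ± 0.020 (limma adjusted p = 0.994), or 0.11 ± 0.11 with the Cy5 arrays turned (adjusted p = 0.496). The probes thus disagreed, and averaged they gave -0.12 (adjusted p = 0.982). Which of them reports the transcript cannot be read from ratios.

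The genes whose ratios were most like those of probe 20027 over the 9 arrays were Atf3 (r = 0.97), a stress-induced transcription factor, Arid5a (r = 0.95), and Ifit1 (r = 0.95), an interferon-induced gene. Next came Klf6 (r = 0.93), Egr1 (r = 0.93), the chaperone gene Hsp90aa1 (r = 0.92) and 1 of 2 probes of Jun (r = 0.92). Atf3, Egr1, Jun and Fos are immediate early genes, transcribed soon after a cell is stimulated, as is Ptgs2 itself, while Ifit1 and Hsp90aa1 are not counted among them. The genes after the first 3, and Fos, were named after their values were seen, and the arrays are 9 hybridisations of 5 pairs. Atf3 was at -2.32 in pair 194 and at 2.39 and 2.51 on the 2 arrays of pair 220. Egr1 was at -1.95 in pair 194 and at 1.57 and 1.45 in pair 220. Fos was at -3.50 in pair 194 and positive on every other array, also in pairs 193 and 197, where Ptgs2 probe 20027 was negative. In pair 193 Atf3 (0.50 and 0.54) and Egr1 (0.53 and 0.41) were positive as well, while that Jun probe was negative (-0.26 and -0.50). Markers of Schwann cells also stood apart in pair 194, where 3 of 5 measured had a median of 3.77, and their part in the value of Ptgs2 was not tested.

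**Figure D2:**
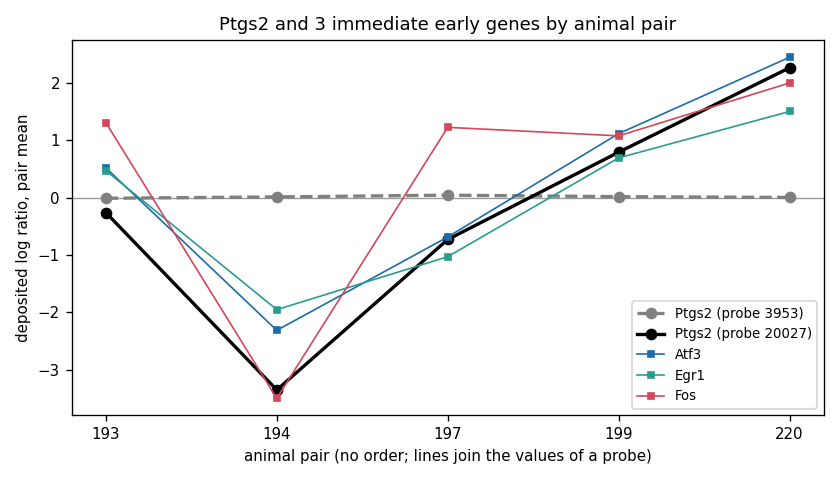
Mean log ratio of each animal pair (vertical axis, log scale of unstated base) for both Ptgs2 probes and for Atf3, Egr1 and Fos, with pairs along the horizontal axis. Probe 20027 of Ptgs2, Atf3 and Egr1 are lowest in pair 194 and highest in pair 220, and probe 3953 stays near 0. In pair 193 probe 20027 is below 0, while Atf3 and Egr1 are above it.

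Ptgs1, the constitutive cyclooxygenase, had values between -0.27 and 0.28 on the 9 arrays. Its pair means were -0.18, -0.034, 0.15, -0.0096 and 0.076 in pairs 193, 194, 197, 199 and 220, on both sides of 0. The mean was 0.0013 ± 0.12 (n = 5, limma adjusted p = 0.998), and -0.063 ± 0.13 with the Cy5 arrays turned (adjusted p = 0.710). Its probe lay in the outermost row of the array, where local medians lay between -0.21 and 0.44, about as far apart as the values.

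The promoters of the 2 cyclooxygenases are shown because both genes make the same product and the pair means of 1 Ptgs2 probe spread far wider than those of Ptgs1, although the other Ptgs2 probe spread less. They run from 250 bases before to 50 after the start site, 5′ to 3′, from RefSeq on build GRCr8. Ptgs2 lies at chr13:64713813-64714112 on the plus strand and Ptgs1 at chr3:39981169-39981468 on the plus strand. Capitals mark matches to the E-box CACGTG, the cAMP response element TGACGTCA, the TATA box TATAAA and the GC box GGGCGG, each searched on both strands.
Ptgs2: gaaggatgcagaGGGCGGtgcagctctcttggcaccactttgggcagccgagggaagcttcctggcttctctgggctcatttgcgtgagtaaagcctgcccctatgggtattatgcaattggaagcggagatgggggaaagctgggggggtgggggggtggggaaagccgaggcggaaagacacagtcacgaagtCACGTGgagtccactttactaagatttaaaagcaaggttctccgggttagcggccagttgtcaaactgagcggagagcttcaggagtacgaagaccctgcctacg
Ptgs1: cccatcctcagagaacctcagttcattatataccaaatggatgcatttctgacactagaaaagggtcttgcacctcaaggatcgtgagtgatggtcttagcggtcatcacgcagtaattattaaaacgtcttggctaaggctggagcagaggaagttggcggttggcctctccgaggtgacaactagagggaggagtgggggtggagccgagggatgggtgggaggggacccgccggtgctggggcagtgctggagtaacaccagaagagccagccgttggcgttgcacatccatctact
Ptgs2 held an E-box 55 bases before the start site and a GC box 238 bases before it, and Ptgs1 held none of the 4 motifs. Of 33469 rat promoters of that length, 6.42% held the E-box, 1.83% the cAMP response element, 14.2% the TATA box and 33.1% the GC box. These matches are letters only and show no binding.

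Ptgis, which makes prostacyclin, was far below 0 in 1 pair. Pair 197 had log ratios of -2.87 with DMO on Cy3 and -2.27 with DMO on Cy5. The other Cy3 arrays had -1.02, 0.053, -0.078 and -0.32 in pairs 193, 194, 199 and 220, and the other Cy5 arrays -0.29, 0.38 and 0.10 in pairs 193, 199 and 220. Pairs 193 and 197 were thus negative on both arrays, and in pairs 199 and 220 the sign turned with the dye. A mean under -2 in pair 197 was held by 0.359% of features, a limit also chosen after the values were seen. The mean over pairs was -0.63 ± 1.13 (limma adjusted p = 0.943), and -0.14 without pair 197. The local medians of Ptgis in pair 197 were 0.10 and 0.23, and the pair stood at -2.74 once they were subtracted. With the Cy5 arrays turned, Ptgis averaged -0.21 ± 0.16 (adjusted p = 0.278), and -0.045 with the local median subtracted as well (adjusted p = 0.795). Markers of the cell types of the wall and its fat also varied between pairs. Of 10 smooth muscle markers 7 were measured, with medians of -0.75, 0.020, -0.90, 0.012 and -0.018 in the 5 pairs. Of 10 adipocyte markers 8 were measured, with medians of -0.13, 0.19, 2.27, 2.29 and -0.00053. Smooth muscle markers were thus lowest in the 2 pairs where Ptgis was lowest, and adipocyte markers were high in pair 197 and also in pair 199, where Ptgis was at 0.15. Of 11 endothelial markers 9 were measured, with a highest median of 0.42 in pair 197. The part of cell make-up in the values of Ptgis was not tested. The genes whose ratios were most like those of Ptgis over the 9 arrays were Sec23a (r = 0.98), of the coat of secretory vesicles, Dynll1 (r = 0.97), a dynein light chain, and Phf20 (r = 0.97), and all 3 had their lowest pair mean in pair 197, between -1.16 and -1.03. The first 3 were Fam110b, Dynll1 and Foxo3 once the local median was subtracted.

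Tbxas1, which makes thromboxane, varied less. With DMO on Cy3 it was at 0.014, -0.55, -0.63, -0.24 and -0.047 in pairs 193, 194, 197, 199 and 220, and with DMO on Cy5 at 0.31, 0.11, -0.11 and 0.31 in the 4 swapped pairs. Values of the DMO-Cy5 arrays lay above those of the same pair on Cy3 in each of the 4. The mean was -0.14 ± 0.30 (limma adjusted p = 0.945), and without pairs 194, 193 or 220 in turn it was -0.035, -0.21 and -0.21. With the Cy5 arrays turned it was -0.26 ± 0.20 (adjusted p = 0.243) and negative in 5 of 5 pairs, as in 9.67% of features. Markers of the cells that carry thromboxane synthase also varied. Of 10 macrophage and leukocyte markers 9 were measured, with medians of 0.094, -0.37, 0.053, -0.19 and 0.044 in the 5 pairs. Pair 194 was lowest, as for the pair means of Tbxas1, but it has a Cy3 array only. On the Cy3 arrays alone Tbxas1 was lower in pair 197 (-0.63) than in pair 194 (-0.55). Pair 194 was also lowest in lists of other genes, with medians of -0.033 for prostanoid enzymes and -0.13 for the Gq, RhoA and calcium arm. Of 9 platelet markers 4 were measured, with a highest median of 0.11 in pair 193 and a lowest of -0.19 in pair 194. The part of these cells in the values of Tbxas1 was not tested.

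Ptgir, the prostacyclin receptor, had the sign of the dye orientation on every array. With DMO on Cy3 its log ratio was 0.33, 0.45, 0.75, 0.37 and 0.23 in pairs 193, 194, 197, 199 and 220. With DMO on Cy5 it was -0.18, -0.11, -0.70 and -0.53 in pairs 193, 197, 199 and 220. The 5 arrays with DMO on Cy3 were thus all positive and the 4 with DMO on Cy5 all negative. This pattern, counted only in the direction seen for Ptgir, was held by 1.59% of features. Features with the opposite pattern were not counted. The pair means were 0.072, 0.45, 0.32, -0.16 and -0.15, and their mean was 0.11 ± 0.27 (n = 5, limma adjusted p = 0.948). It was 0.020 without pair 194 and 0.052 without pair 197, and 0.17 without either pair 199 or pair 220.

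The median of the features around Ptgir had the same sign as Ptgir on all 9 arrays. Its probe lay in the outermost column of the array. The local medians there were 0.18, 0.14, 0.50, 0.36 and 0.12 on the Cy3 arrays of pairs 193, 194, 197, 199 and 220, and -0.16, -0.038, -0.51 and -0.31 on the Cy5 arrays of pairs 193, 197, 199 and 220. Of the 119 features in its window, 25 had positive values on all Cy3 and negative values on all Cy5 arrays (21.0%), against 1.48% of the features outside it. This share was also raised around Tbxa2r (22 of 209, or 10.5%) and Ptgs2 probe 3953 (16 of 224, or 7.14%). Around each other member probe it was at most 1.79%. Read with the Cy5 arrays turned, Ptgir averaged 0.41 ± 0.10 and was positive in 5 of 5 pairs, as were 10.1% of features, with a limma adjusted p of 0.140. With the local median subtracted as well, it averaged 0.16 and was positive in 5 of 5 pairs (adjusted p = 0.261). As deposited and with the local median subtracted it averaged 0.063 ± 0.16 (adjusted p = 0.984). Once the local median was subtracted, Ptgir was still positive on the 5 Cy3 arrays and negative on the 4 Cy5 arrays, as were 1.1% of features, but by at most 0.31. The genes most like it over the 9 arrays were Csk (r = 0.99), a kinase that restrains Src, Tcp11 (r = 0.98) and the chloride transporter gene Clcn6 (r = 0.98). The probes of Tcp11 and Clcn6 lay 2 and 3 columns from that of Ptgir, and that of Csk lay 97 columns away. Csk was again first with the local median subtracted, followed by Ube2q1 and Zbtb17.

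**Figure D3:**
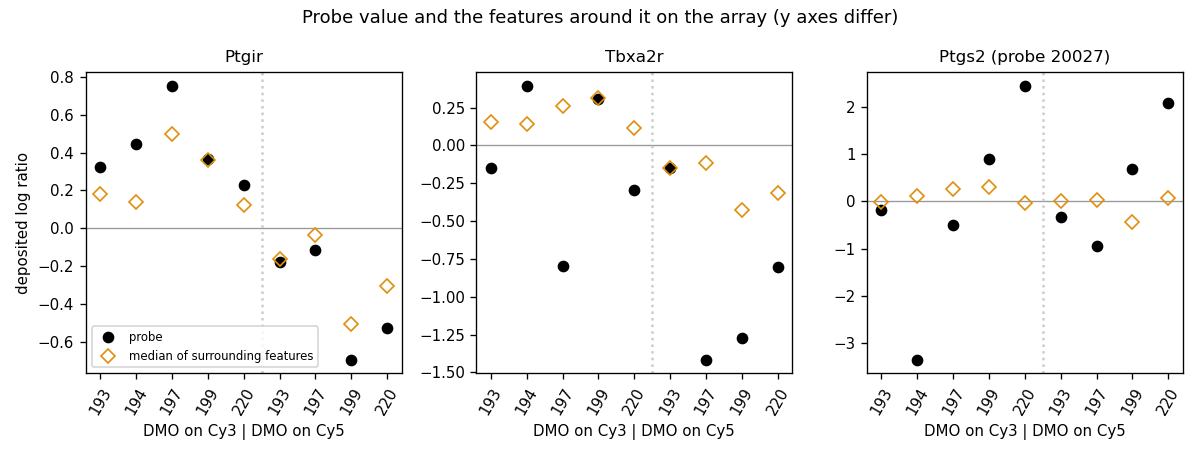
Log ratio of a probe (filled circles) and median of the features around it (open diamonds) on each array for Ptgir, Tbxa2r and Ptgs2 probe 20027 (vertical axis, log scale of unstated base), with DMO-Cy3 arrays left of the dotted line and DMO-Cy5 arrays right of it (horizontal axis, animal pair). Ptgir has the sign of its surroundings on every array and lies further from 0 than they do, by at most 0.31. Tbxa2r lies at or below its surroundings on all arrays but that of pair 194, and Ptgs2 far from them in pairs 194 and 220.

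Tbxa2r, the thromboxane receptor, was negative on 7 of 9 arrays. With DMO on Cy3 it was at -0.15, 0.39, -0.80, 0.31 and -0.29 in pairs 193, 194, 197, 199 and 220, and with DMO on Cy5 at -0.15, -1.42, -1.28 and -0.81 in pairs 193, 197, 199 and 220. Pair 194 was positive, and the 2 arrays of pair 199 had opposite signs. The mean was -0.38 ± 0.55 (n = 5, limma unadjusted p = 0.0783, adjusted p = 0.943), and at least 7 negative arrays were held by 9.49% of features. Without pair 197 the mean was -0.20, and without pair 194 it was -0.57. With the local median subtracted the pair values were -0.15, 0.25, -1.18, -0.43 and -0.45 and the mean -0.39 (adjusted p = 0.983), so the size as deposited remained. With the Cy5 arrays turned the mean took the other sign, at 0.35 ± 0.29 (adjusted p = 0.219), and was 0.14 with the local median subtracted as well. Pair 197, where Tbxa2r was lowest, is also the pair with the lowest smooth muscle markers, whose part was not tested. The genes most like Tbxa2r over the 9 arrays were Qpctl, Wdfy2 and Pa2g4 (r = 0.96 each). Once the local median was subtracted, the first 3 were instead Stambp, Cfap126 and Ap3b1.

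Set against each other within a pair, the 2 receptors differed one way in their pair means, though not on every array. The log ratio of Ptgir exceeded that of Tbxa2r by 0.22, 0.056, 1.43, 0.32 and 0.40 in pairs 193, 194, 197, 199 and 220. On the DMO-Cy5 array of pair 193 alone, Ptgir (-0.18) was slightly below Tbxa2r (-0.15). The mean difference was 0.48 ± 0.54 and positive in 5 of 5 pairs. How often other pairs of genes differ one way in all 5 was not counted. An exact two-sided sign-flip permutation test gave p = 0.062, the smallest that 5 pairs allow, and 0.125 after adjustment over the 2 such tests. Pair 197 carried much of its size, and the mean was 0.25 without it. With the local median subtracted the mean was 0.45, and with the Cy5 arrays turned it was 0.058 (exact p = 0.562). The synthases gave no single sign: Ptgis minus Tbxas1 was -0.82, 0.60, -2.31, 0.33 and -0.24 in the 5 pairs, with a mean of -0.49 ± 1.16 (exact permutation p = 0.5, adjusted p = 0.5), and -0.032 without pair 197.

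**Figure D4:**
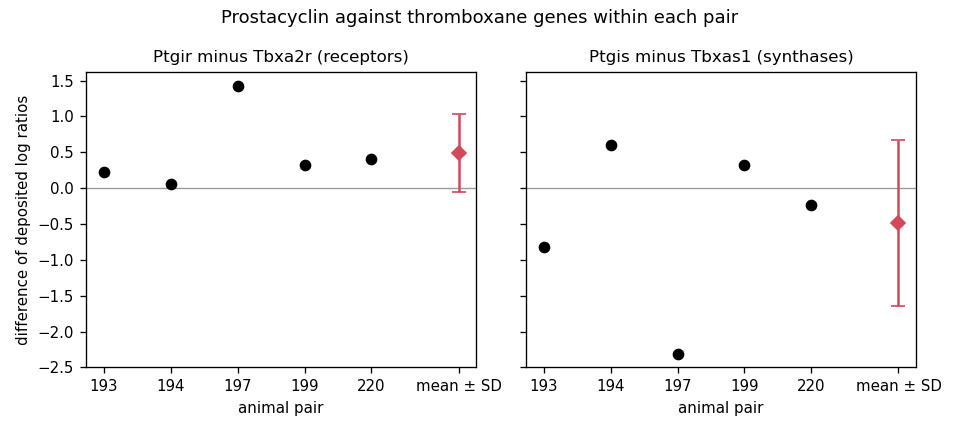
Difference of deposited log ratios (vertical axis, log scale of unstated base) within each animal pair (horizontal axis), for Ptgir minus Tbxa2r and Ptgis minus Tbxas1. Diamonds with bars are the mean ± SD over 5 pairs. The receptor difference is above 0 in every pair and the synthase difference lies on both sides of 0.

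Ptger4, a receptor for prostaglandin E that raises cAMP, was at 0.14, -0.39, 0.66, 0.65 and -0.0088 with DMO on Cy3 in pairs 193, 194, 197, 199 and 220. With DMO on Cy5 it was at 0.42, 0.97, -0.37 and 0.22 in the 4 swapped pairs. Pairs 193 and 197 were positive on both arrays, and in pairs 199 and 220 the arrays had opposite signs. The mean was 0.19 ± 0.43 (limma adjusted p = 0.943), and leaving out 1 pair moved it between 0.034 (without pair 197) and 0.33 (without pair 194). It was -0.057 ± 0.34 with the Cy5 arrays turned (adjusted p = 0.839). Ptgdr, a receptor for prostaglandin D, stayed between -0.25 and 0.030 on the 9 arrays. Its pair means were negative in 5 of 5 pairs, as they were for 2.75% of features (6.03% had 1 sign in all 5), at -0.094 ± 0.067 (adjusted p = 0.945), but its 2 arrays had opposite signs in 2 of 4 swapped pairs. With the local median subtracted its mean was -0.047 and 4 of 5 pairs were negative. Turning the Cy5 arrays gave -0.049 ± 0.10 (adjusted p = 0.762), with 3 of 5 pairs negative.

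The part of the ratio that turns sign with the dye, taken as 0.5 of the difference between the DMO-Cy3 and DMO-Cy5 arrays of the 4 swapped pairs, was also tested. limma called no feature (0 of 22575, or 0%), and an unadjusted p under 0.05 was reached by 21.2% of features and by 5 of 9 member probes. This part was 0.40 ± 0.12 for Ptgir and -0.28 ± 0.070 for Ptgis (SD, n = 4 pairs, limma adjusted p = 0.132 each). With the local median subtracted it was between 0.081 and 0.17 for Ptgir in the 4 pairs, and between -0.24 and 0.13 for Ptgis. With the Cy5 arrays turned over all 5 pairs, 15.9% of features and 4 of 9 member probes had an unadjusted p under 0.05, with an adjusted p of at least 0.140 among them.

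Among other genes of prostanoid synthesis none passed in limma. Of 13 listed enzymes 11 were measured, 7 with positive and 4 with negative means, where 11657 of all 22575 features had positive means. The median of the list was 0.063 as deposited and 0.019 with the Cy5 arrays turned. Akr1b1, aldose reductase, had the largest mean, at 0.50 ± 0.38, with 0.47, 0.41, 0.84, 0.86 and -0.057 in pairs 193, 194, 197, 199 and 220 (adjusted p = 0.943), and 0.24 with the Cy5 arrays turned. Akr1c14, a hydroxysteroid dehydrogenase, was at 0.30 ± 0.47 as deposited, at -0.18 turned, and at 0.17, 0.20 and 0.46 without pairs 197, 199 and 194. Ptgr1, which inactivates prostaglandins, was positive in 5 of 5 pairs at 0.29 ± 0.23 (adjusted p = 0.943) and at 0.047 turned. Of 8 other receptors and carriers 6 were measured, 1 with a positive and 5 with negative means, and none passed. The 3 with the largest means were all within 0.063 of 0: Ptgfrn, the prostaglandin transporter gene Slco2a1 and the receptor gene Ptger2.

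Genes that free arachidonic acid or use it otherwise gave 10 positive and 3 negative means among 13 measured, and none passed. Their median was 0.080 as deposited and took the other sign, at -0.050, with the Cy5 arrays turned. Ephx2, soluble epoxide hydrolase, was at 0.51 ± 0.52 as deposited, at -0.19 turned and at 0.34 without pair 199. The secreted phospholipase gene Pla2g2a was at 1.67, -0.84, -0.61, 2.30 and -0.64 in the 5 pairs, with a mean of 0.38 that became -0.10 without pair 199, 0.054 without pair 193, 0.63 to 0.68 without any 1 of the others and -0.16 with the Cy5 arrays turned. The lipase gene Mgll was at 0.20 ± 0.28 as deposited, at 0.16 turned and at 0.13 without pair 193.

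Downstream of the receptors no gene of either arm passed in limma, and the medians of the lists lay near 0. The Gs and cAMP arm, used by Ptgir, had 27 of 29 genes measured, 13 with positive and 14 with negative means, and a median of -0.0021, or 0.025 with the Cy5 arrays turned. Prkar2b, a regulatory subunit of protein kinase A, was at 0.75 ± 1.07, with 2.07 in pair 197 and 1.65 in pair 199, and at 0.42 without pair 197. The nuclear receptor gene Pparg was at 0.53 ± 0.71, and at 0.33 and 0.36 without pairs 197 and 199. Turning the Cy5 arrays put Prkar2b at 0.15 and Pparg at 0.056. In pairs 197 and 199 the adipocyte markers, of which Pparg is 1, were high as well, and their part was not tested. The adenylyl cyclase genes Adcy5 and Adcy7 were negative in 5 of 5 pairs, the only 2 of the 27 genes that were. Of all features, which are single probes, 2.75% were. Genes with 1 sign in all pairs were also found in the other arm, given below. Adcy5 was at -0.68 ± 0.72, at -0.38 without pair 197 and at -0.21 turned. Adcy7, named after its values were seen, was at -0.52 ± 0.24 as the average of its 2 probes, and at -0.11 turned. Its lower limma p of 2 probes was 0.00026 unadjusted and 0.936 adjusted.

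The Gq, RhoA and calcium arm, used by Tbxa2r, had 24 of 28 genes measured, 9 positive and 15 negative, with a median of -0.050, or 0.010 with the Cy5 arrays turned. In this list 2 genes were negative and 2 positive in 5 of 5 pairs, against 620 and 741 of all 22575 features. Itpr3, a calcium release channel, was at 0.57 ± 0.78, with 1.92 on the single array of pair 194. It was at 0.24 without that pair and at 0.30 turned. The kinase gene Prkcd was at -0.56 ± 0.90, at -0.30 without pair 197, at -0.91 without pair 194 and at 0.26 turned. Ppp1r14a, a smooth muscle inhibitor of myosin phosphatase, was at -0.49 ± 1.34, with -2.68 in pair 197, where Ptgis was also lowest. It was at 0.054 without that pair, at -0.79 without pair 194 and at 0.18 turned.

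**Figure D5:**
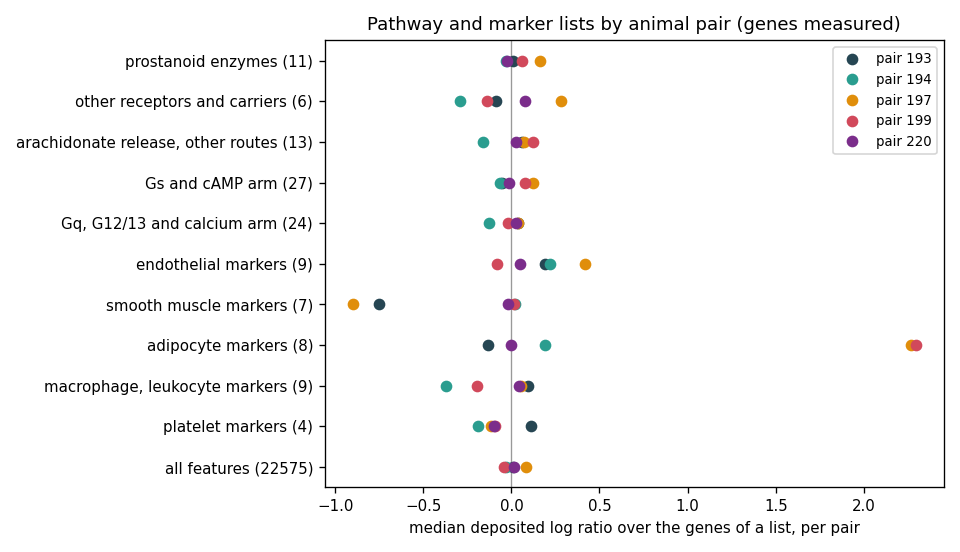
Median log ratio of the measured genes of each list (horizontal axis, log scale of unstated base) in each animal pair (coloured points), with the number of genes in brackets. Pathway lists lie between -0.29 and 0.28, and adipocyte markers stand above 2 in pairs 197 and 199.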

How the data were processed

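Two-colour arrays of rat thoracic aorta were used as deposited. Per the values, the authors' deposited log2 values (base not stated, taken as 2) are 1 log ratio per feature and array, with a mean of 0 on each array; how they were scanned, background-corrected and normalized was not given in the sources available. No signals were used, so dim features were not removed, and precision is limited by how few arrays there are. Of the features, 12750 have 1 gene symbol in the platform annotation, 5 have several and 9820 none; 12720 of the 12750 matched a RefSeq gene. The 2 dye orientations of an animal pair share their RNA and were averaged. limma 3.58.1 in R 4.3.3 tested the mean of 5 pair values against 0 for all 22575 features, with Benjamini-Hochberg adjustment, and the test was run on simulated data, where it called 34% of features shifted by 0.5 and 86% of those shifted by 1. Receptor and synthase differences used exact sign-flip permutation tests in Python 3.11.15. All members were named, and of each pathway list the 3 largest means; likest genes were the 3 of highest Pearson r, beyond which some were added for Ptgs2, and Adcy7, after their values were seen. Members and lists were chosen with earlier results of these data known, and the local median was added after the values were seen. Pairing rests on the animal numbers in the labels. Promoters of 7 of 8 members were in the RefSeq table. Alternatives were dye turning, centring, scaling, probe averaging, named features alone, no moderation, single orientations, a block for the pair, and pairs left out.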

Additional observations from a re-analysis of the deposited data

Results flagged for a closer look

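Ptgir was positive on every array with DMO on Cy3 and negative on every array with DMO on Cy5, with means of 0.42 and -0.38. The difference between these 2 sets of arrays was not tested by permutation, and the test of its dye part is given above. In the difference of Ptgir minus Tbxa2r, pair 197 (1.43) lay far from the other 4 pairs. Such a far value was found in 1 of 11 sets of 5 pairs examined, and chance gives about 1 in 20.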

How the results depend on the processing

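Of 171 recomputed member values, 147 kept their sign, 24 did not, and none passed an adjusted p of 0.05. Some of the 147 could not change. The fit without moderation and that of named features alone leave every mean as it was. Probe averaging does so for genes with 1 probe. The count of features called in the comparison of groups was 0 under each alternative except without moderation, where it was 1, and the count at an unadjusted p under 0.05 ran between 573 and 3587, with 686 without pair 199. That of the dye part was 4796, and 3123, 2920, 6152 and 2997 without pairs 193, 197, 199 and 220. With the pair as a replicate block over single arrays it was also 0, Ptgs2 probe 20027 was at 0.059, and no other member changed its sign. Turning the Cy5 arrays reversed Ptger4 (-0.057), Ptgs1 (-0.063), Tbxa2r (0.35, and 0.14 with the local median subtracted) and the synthase difference (0.051, exact permutation p = 0.875). With Cy5 arrays alone, Ptgir was at -0.38, Tbxas1 at 0.15, Ptgs2 probe 20027 at 0.37 and probe 3953 at -0.12. Ptgs1, near 0, turned negative with centring (-0.0011), scaling (-0.015), Cy3 arrays alone (-0.055), without pairs 197 and 199 (-0.045), and with the local median over 15 by 15 (-0.057) or 31 by 31 features (-0.059), and ranged from -0.036 to 0.046 with 1 pair left out. Without pairs 197 and 199 Ptger4 was at -0.00094. Ptgs2 probe 20027 ranged from -0.89 to 0.52 with 1 pair left out. Its probe 3953 was at -0.12 with probes averaged, -0.012 with the dye part taken from pair 194, -0.014 and -0.034 with the 2 local medians and -0.00030 with the local median and turning. The causes were not tested. Dim features could not be told apart from bright ones, which limits small ratios such as those of Ptgs1 and Ptgdr.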
